A study of Homo sapiens with 6 samples.

Results

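Glycogen is the branched glucose polymer in which cells store sugar, and 9 genes that build it, break it down or regulate that balance were followed in Caki-1 cells with and without an edited VHL gene. They are PGM1 and UGP2, which make the sugar donor, GYG1, GYS1 and GBE1, which build the polymer, PYGL and PYGB, which degrade it, and PPP1R3B and PPP1R3C, which regulate both. All 9 were found among the 60708 genes of the count table, and all 9 were among the 17401 genes tested, those that reached 10 reads in 1 sample or more. Caki-1 is an established human clear cell carcinoma line. The VC samples (n = 3) came from cells infected with the Lenti-CRISPR vector only and labelled as wild type, and the VHL-KO samples (n = 3) from cells infected with Lenti-CRISPR carrying an sgRNA against VHL. Both were labelled with the same description of lentiviral infection and puromycin selection. The knockout lines were described as clonal, and the number of clones behind the 3 samples was not given in the sources used here, so an effect of the edit and a property of a clone cannot be told apart. Nothing said that the replicates were separate cultures, so p-values measure only the spread between these samples. RNA was measured in bulk, in which fewer cells of a type and less RNA per cell cannot be told apart.

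Glycogen synthesis starts when phosphoglucomutase turns glucose-6-phosphate into glucose-1-phosphate and UDP-glucose pyrophosphorylase activates it to UDP-glucose. Glycogenin primes a chain, glycogen synthase extends it and the branching enzyme adds branch points, while glycogen phosphorylase releases glucose-1-phosphate from chain ends. Protein phosphatase PP1, held on glycogen by targeting subunits, removes phosphates from both enzymes, which activates the synthase and inactivates the phosphorylase. Clear cell renal carcinoma is named for cytoplasm rich in lipid and glycogen, and VHL is the ubiquitin ligase subunit that marks the α subunits of hypoxia-inducible factors (HIF) for degradation.

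Reads counted on genes totalled 31789923, 28463579 and 34881739 in VC replicates 1 to 3 and 29139722, 22805385 and 22628246 in VHL-KO replicates 1 to 3. Levels are given in CPM, the reads of a gene scaled by library size with TMM factors, which set the libraries to one scale from the bulk of their genes, and a count of 0 allowed a level of up to 0.0790 CPM in the deepest and 0.141 CPM in the shallowest library (3 counts, counting error only). A gene was called where its adjusted p, described next, was under 0.05.

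The edited gene was checked first. VHL stood at 42.6, 37.8 and 40.1 CPM in the VC samples and at 34.8, 30.5 and 30.5 CPM in the VHL-KO samples. All VHL-KO samples lay below all VC samples, and VHL mRNA was lower but present throughout; counts per gene do not show edited bases. The log2 fold change was -0.33 with a standard error of 0.11, and edgeR's quasi-likelihood F test gave a Benjamini-Hochberg (BH) adjusted p of 0.0109. That call was lost by the same F test with upper quartile scaling (log2 fold change -0.22, adjusted p = 0.0905). It was also lost on dropping VC replicate 1 (-0.28, 0.0862) or VHL-KO replicate 2 (-0.30, 0.0621). The adjusted p ranged from 0.000293 to 0.0905 over 15 alternatives of the same edgeR F test or DESeq2. With offsets for GC content and length, described below, VHL was at -0.20 and called. Of the exonic bases of VHL, 23.5% overlap an annotated gene on the opposite strand.

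Known HIF targets separated the groups. CA9, a carbonic anhydrase, had 0, 0 and 2 reads in the VC samples and 288, 247 and 233 reads in the VHL-KO samples. This is a ratio of 562 with a 95% counting interval of 155 to 4646. Both VC reads came from VC replicate 3, so the size of the ratio rests on that library. Of the exonic bases of CA9, 35.7% overlap ARHGEF39 on the opposite strand. VEGFA, an angiogenic growth factor, rose by a log2 fold change of 2.48, and SLC2A1, which encodes the glucose transporter GLUT1, by 0.70 (adjusted p = 1.35e-15 and 4.10e-07, edgeR F test with BH adjustment). EGLN3, a HIF prolyl hydroxylase that is itself a HIF target, went the other way, at 2.02, 1.38 and 1.77 CPM in VC and 0.374, 0.927 and 0.891 CPM in VHL-KO samples (log2 fold change -1.26, adjusted p = 0.00337 by that F test of edgeR). The signs of these 4 fold changes were the same under every scaling tried.

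The label of a renal carcinoma line was checked against markers. Of 5 renal epithelial markers, 4 were well detected in every sample (PAX8, KRT8, KRT18 and VIM), and PAX2 had 0 reads in all samples. Their summed level was 7477 to 8636 CPM, most of it from VIM (mean 6433 CPM in VC and 6138 CPM in VHL-KO samples). The means of PAX8, KRT8 and KRT18 were 427.6, 670.1 and 408.9 CPM in VC, against 613.8, 951.5 and 528.9 CPM in VHL-KO samples. PAX8, KRT8 and KRT18 were called higher in VHL-KO cells and VIM was not called. The summed level of 4 leukocyte markers was at most 0.337 CPM, that of 2 hepatocyte markers at most 0.375 CPM and that of 3 skeletal muscle markers at most 0.185 CPM; CD3E, MYH1 and CKM had 0 reads in every sample. Liver and muscle are the tissues best known for glycogen, and their defining markers were at or near 0 here.

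Stromal markers were also low, with a pair of genes that differed between the groups. Of 3 endothelial markers, PECAM1 alone reached 10 reads, and their sum was 0.117, 0.168 and 0 CPM in VC and 0.711, 0.324 and 0.469 CPM in VHL-KO samples. Of 3 fibroblast markers, LUM was at 0 and PDGFRB made up nearly all of the sum, which was 8.26, 10.7 and 7.77 CPM in VC and 2.13, 2.32 and 2.58 CPM in VHL-KO samples. The part of these differences in the results below was not tested.

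In VHL-KO cells the mRNAs of glycogen synthase (GYS1, 1.87-fold), the PP1 targeting subunit PPP1R3B (1.84-fold), phosphoglucomutase (PGM1, 1.54-fold) and the brain isozyme of glycogen phosphorylase (PYGB, 1.47-fold) were higher than in VC cells, so that genes of both synthesis and breakdown rose. The branching enzyme GBE1 and the liver phosphorylase PYGL showed no difference past the test with TMM scaling; with offsets for GC content and length, given below, GBE1 was called higher and the change of PYGB was smaller. These changes stood among many others. At a BH-adjusted p under 0.05 over all tested genes, 10394 of 17401 genes were called, which is 59.7%, with 28.5% higher and 31.2% lower in VHL-KO cells. Of the 9 glycogen genes, 5 were called, 4 of them higher (GYS1, PGM1, PYGB and PPP1R3B) and 1 lower (UGP2), and 4 were not called (GYG1, GBE1, PYGL and PPP1R3C). The share called, 55.6%, was thus close to that of all genes with TMM scaling. With the GC and length offsets 77.8% were called, all of them higher. Of all 17401 tested genes, 10425 were then called in either direction and 28.3% were called higher. The lower call of UGP2 was kept in 5 of 15 alternatives. The share called higher was 44.4% against the 28.5% of all genes, and their median log2 fold change of 0.36 stood against -0.01 over all tested genes; with 9 chosen genes these are descriptions. For 6 of the 9 genes the groups had no overlap, 5 with VHL-KO higher and 1 with VC higher, against 64.7% of all tested genes.

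**Figure D1:**
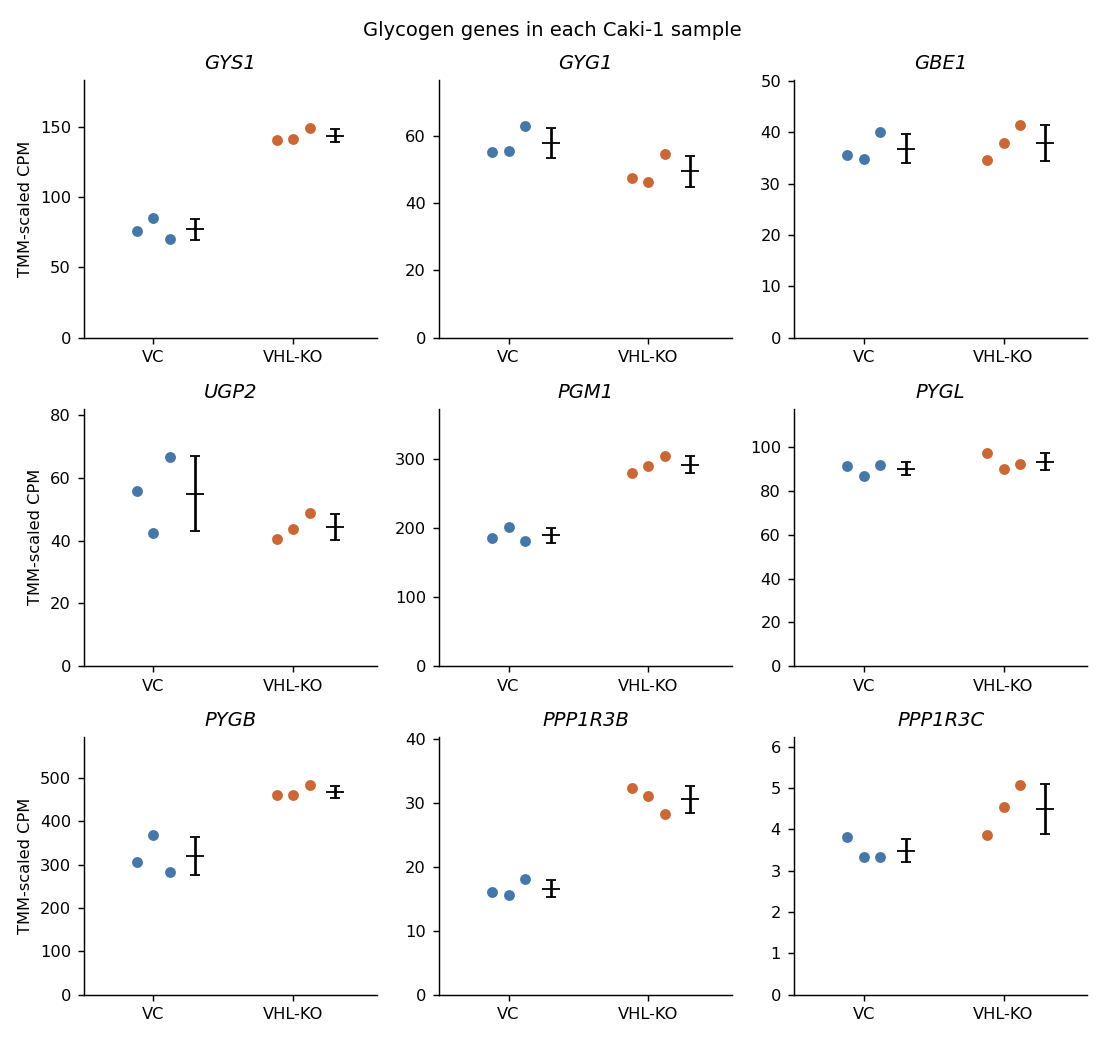
Level of each glycogen gene in TMM-scaled CPM (vertical axes, from 0) in the 3 VC (blue) and 3 VHL-KO (orange) Caki-1 samples, with the mean and SD of each group in black. GYS1, PGM1, PYGB and PPP1R3B show a clear step between the groups, GBE1 and PYGL do not, and UGP2 spreads from 42.6 to 66.6 CPM within VC.

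GYS1 (ENSG00000104812.15, chr19:48968130-48993310) encodes the glycogen synthase of muscle and most other tissues; gene positions here and below are those of GENCODE on GRCh38. Its level was 76.2, 85.1 and 70.1 CPM in VC replicates 1 to 3 and 141, 141 and 149 CPM in VHL-KO replicates 1 to 3. The lowest VHL-KO sample was far above the highest VC sample, VC replicate 2. The fold was 1.87, a log2 fold change of 0.90 with a standard error of 0.10 and a 95% interval of 0.70 to 1.10 (adjusted p = 1.49e-08, edgeR F test with BH adjustment). With the GC and length offsets it was 0.63, still called and below that interval. The change of GYS1 was larger than that of 81.0% of all tested genes when they were ordered from the most negative to the most positive.

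The gene for the synthase's primer was not called. GYG1 (ENSG00000163754.18, chr3:148991408-149031775), glycogenin, stood at 55.2, 55.5 and 63.1 CPM in VC and at 47.6, 46.2 and 54.8 CPM in VHL-KO samples. The highest VHL-KO sample lay just under the lowest VC sample. Its log2 fold change was -0.23 (95% interval -0.44 to -0.01), and its adjusted p of 0.0633 in the edgeR F test with BH adjustment missed the threshold. It was called in 6 of 15 alternatives, lower in 4 of them and higher in 2. The calls of a lower level came with library size alone (-0.42), with no filter beyond 1 count (-0.26), on dropping VHL-KO replicate 3 (-0.30) and without VC replicate 2 (-0.24). A smaller decrease, not called, was estimated with upper quartile scaling (-0.11) and without VC replicate 3 (-0.14). The sign of this estimate was negative with TMM, library size and upper quartile scaling and positive once each library's trend with GC content and length was removed, as described with the other GC values below. Of its exonic bases, 21.8% overlap HLTF on the opposite strand, and the annotation holds 3 pseudogene copies (GYG1P1, GYG1P2 and GYG1P3), so its count is uncertain.

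GBE1 (ENSG00000114480.13, chr3:81489703-81761645), the branching enzyme, was at 35.6, 34.8 and 40.1 CPM in VC and at 34.5, 37.9 and 41.5 CPM in VHL-KO samples. The groups overlapped fully, with the lowest and the highest sample both in VHL-KO. The log2 fold change was 0.04 with a 95% interval of -0.18 to 0.27 (adjusted p = 0.753, edgeR F test with BH adjustment), an interval that does not reach the change of GYS1. GBE1 was called higher, at 0.38, with the GC and length offsets. Within synthesis, the GYS1 to GBE1 ratio of reads per kilobase was 2.35, 2.68 and 1.92 in VC, against 4.48, 4.09 and 3.94 in VHL-KO samples. The GYS1 to GYG1 ratio per kilobase went from 2.39 ± 0.381 to 5.19 ± 0.316 (mean ± SD, n = 3 each). Both ratios pair genes of different GC content, and their rise was smaller once each library's trend with GC content and length was taken out of the counts, an alternative chosen after the data were seen. The mean GYS1 to GBE1 ratio then rose 1.19-fold in place of 1.80-fold, and that of GYS1 to GYG1 1.33-fold in place of 2.17-fold.

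The genes that make the sugar donor are PGM1 and UGP2. PGM1 (ENSG00000079739.17, chr1:63593411-63660245), the main phosphoglucomutase, was at 186, 202 and 181 CPM in VC and at 280.4, 291 and 305 CPM in VHL-KO samples. Every VHL-KO sample was above every VC sample by more than the whole range within either group. The fold was 1.54, or 0.62 on the log2 scale (standard error 0.09, 95% interval 0.44 to 0.80, adjusted p = 1.25e-06, edgeR F test with BH adjustment).

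UGP2 (ENSG00000169764.16, chr2:63840952-63891562), which joins glucose-1-phosphate to UTP, was at 55.9, 42.6 and 66.6 CPM in VC and at 40.6, 43.8 and 48.8 CPM in VHL-KO samples. The groups overlapped, because VC replicate 2 lay below VHL-KO replicates 2 and 3, and VC replicate 3 stood highest. UGP2 was called lower, at -0.31 on the log2 scale (standard error 0.13, adjusted p = 0.0383, edgeR F test with BH adjustment). This call rested on single libraries and on the scaling. Without VC replicate 3 the log2 fold change was -0.13 (adjusted p = 0.312 by that F test of edgeR), and the call was kept in 5 of 15 alternatives, with adjusted p from 0.000229 to 0.312. Leaving out VC replicate 1 (adjusted p = 0.0785), VHL-KO replicate 1 (0.180) or VHL-KO replicate 2 (0.102) also ended it by that F test of edgeR. The log2 fold changes were then -0.29, -0.24 and -0.30, so for VC replicate 1 and VHL-KO replicate 2 the estimate hardly moved. The sign turned with the GC and length offsets. The PGM1 to UGP2 ratio per kilobase was 5.55, 7.89 and 4.53 in VC, against 11.5, 11.1 and 10.4 in VHL-KO samples, a rise of 1.83-fold in the mean, or 1.46-fold with the trend in GC content and length taken out.

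On the breakdown side, 2 phosphorylase isozymes were expressed. PYGB (ENSG00000100994.12, chr20:25248085-25298012) encodes the brain isozyme of glycogen phosphorylase, which many other tissues and tumors express. Its level was 307, 368 and 284 CPM in VC and 460.4, 460.4 and 484 CPM in VHL-KO samples. VC replicate 2 was the highest VC sample, as for GYS1, and still lay well below the VHL-KO samples. The fold was 1.47, or 0.55 on the log2 scale (standard error 0.09, 95% interval 0.36 to 0.75, adjusted p = 2.02e-05, edgeR F test with BH adjustment). Offsets for GC content and length gave 0.30, still called and below that interval.

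PYGL (ENSG00000100504.17, chr14:50857891-50944483), the liver isozyme, was at 91.4, 86.7 and 92.0 CPM in VC and at 97.4, 90.0 and 92.5 CPM in VHL-KO samples. The groups overlapped and all 6 samples lay within a narrow range. The log2 fold change was 0.05 with a 95% interval of -0.14 to 0.24 (adjusted p = 0.644, edgeR F test with BH adjustment), and its sign was negative with library size alone (-0.14). No alternative called it.

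The share of PYGL among phosphorylase reads per kilobase (PYGL, PYGB and the muscle isozyme PYGM) does not depend on the scaling between libraries, but it does depend on the treatment of GC content. It was 22.6%, 18.8% and 24.1% in VC, against 17.2%, 16.1% and 15.8% in VHL-KO samples. All VHL-KO samples were below all VC samples, of which VC replicate 2 was the lowest. The mean went from 21.8% ± 2.77 to 16.3% ± 0.743 (SD, n = 3 each), a difference of -5.50 percentage points with p = 0.1 in a two-sided exact permutation test, the smallest p that 3 samples against 3 can give, and 0.2 after Benjamini-Hochberg adjustment over the 2 shares tested by exact permutation. With the trend in GC content and length taken out of the counts the difference was -1.94 percentage points, from 19.9% ± 1.52 to 18.0% ± 0.723, and the groups overlapped (p = 0.2 in the same exact permutation test, unadjusted). PYGM had at most 6 reads in a sample and was not tested across genes.

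PP1 reaches glycogen through a family of targeting subunits. PPP1R3B (ENSG00000173281.5, chr8:9136255-9151574), best known from liver, was at 16.1, 15.7 and 18.1 CPM in VC and at 32.4, 31.1 and 28.2 CPM in VHL-KO samples. No VHL-KO sample came near the VC samples. The fold was 1.84, or 0.88 on the log2 scale (standard error 0.12, 95% interval 0.63 to 1.13, adjusted p = 8.52e-07, edgeR F test with BH adjustment).

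PPP1R3C (ENSG00000119938.9, chr10:91628442-91633071), also called protein targeting to glycogen, had few reads, 130, 99 and 126 in VC, against 103, 98 and 108 in VHL-KO samples. These counts corresponded to 3.81, 3.33 and 3.32 CPM and to 3.86, 4.54 and 5.07 CPM. The groups did not overlap, yet VHL-KO replicate 1 lay only just above VC replicate 1. The log2 fold change of 0.36 (95% interval -0.05 to 0.76) had an adjusted p of 0.118 in the edgeR F test with BH adjustment and was not called. It was called with upper quartile scaling (0.47, adjusted p = 0.0421 by that F test of edgeR), and its adjusted p ranged from 0.0108 to 0.480 over 15 alternatives.

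**Figure D2:**
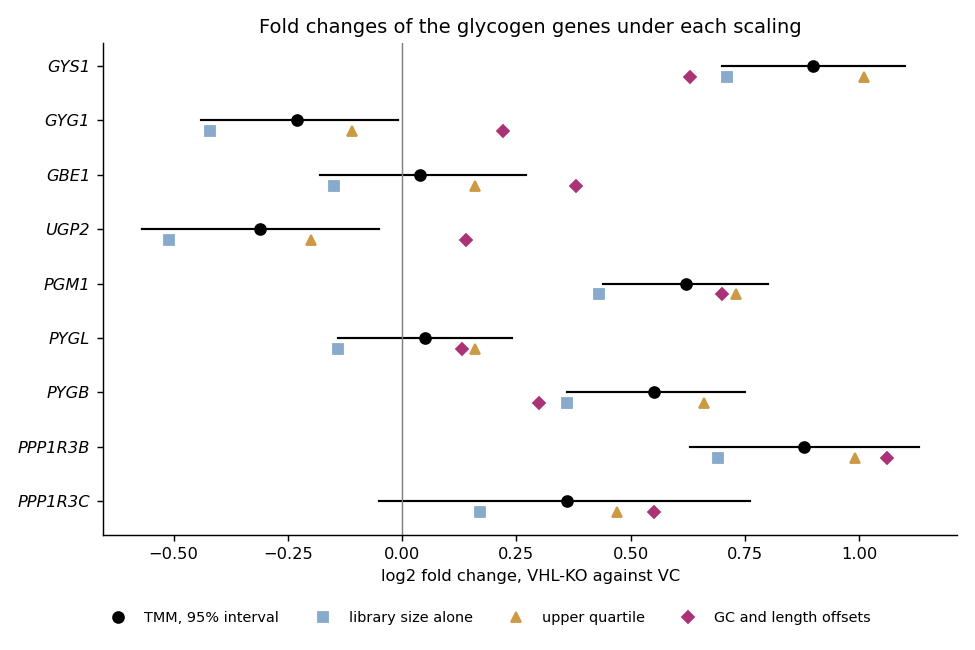
Log2 fold change of each glycogen gene, VHL-KO against VC (horizontal axis), with TMM scaling and its 95% interval (black), library size alone (blue squares), upper quartile factors (yellow triangles) and offsets for GC content and length (purple diamonds). The estimates of GYS1, PGM1, PYGB, PPP1R3B and PPP1R3C are positive throughout, while those of GYG1, GBE1, UGP2 and PYGL lie on both sides of 0. The 95% interval of PPP1R3C spans 0.

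The scaling between libraries moved all genes together. Over all tested genes the median stood at -0.01 (TMM), -0.20 (library size alone) and 0.10 (upper quartile), and that of the 9 glycogen genes was 0.36, 0.17 and 0.47 in the same order. Higher genes made up 47.7%, 35.8% and 55.03% of all calls, again in this order. GYS1, PGM1, PYGB and PPP1R3B were called higher in 15 of 15 alternatives, with lowest log2 fold changes of 0.63, 0.43, 0.30 and 0.69.

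Across the genome, fold changes tracked transcript GC content. Over 17355 genes with a known transcript, Spearman's rho between log2 fold change and GC content was 0.314 (across genes, which are not independent replicates), and the median went from -0.47 under 35% GC to 0.59 at 65% GC or more. Single libraries followed it too. The slope was 0.338 log2 units per 10 percentage points of GC between the groups, 0.148 in VC replicate 2 and -0.138 in VC replicate 3 relative to the mean of VC, and between -0.01 and 0.005 in the other libraries relative to their own group.

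The glycogen genes span this range. GYS1 and PYGB have 58.7% and 58.4% GC, and genes between 55% and 60% GC had a median log2 fold change of 0.30. PPP1R3B, PGM1 and PYGL have 45.4%, 47.7% and 48.7% GC, in a range with a median of -0.05. GBE1 and PPP1R3C, with 41.7% and 42.0% GC, fall in a range with a median of -0.27, and GYG1 and UGP2, with 37.3% and 38.9% GC, in one with a median of -0.45. In VC replicate 2, UGP2 lay 0.35 log2 units below and PYGB 0.21 above the mean of VC, and in VC replicate 3 UGP2 lay 0.30 above and PYGB 0.16 below it.

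**Figure D3:**
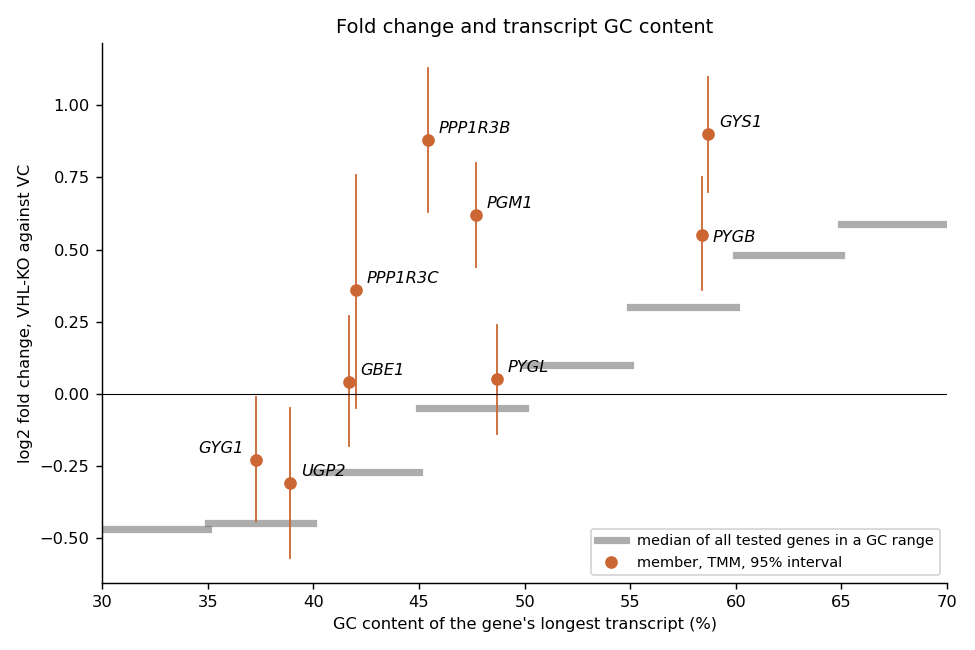
Log2 fold change, VHL-KO against VC (vertical axis), against the GC content of each gene's longest transcript (horizontal axis) for the 9 glycogen genes with 95% intervals (orange), and the median of all tested genes in each GC range (grey bars). All 9 genes lie above the median of their own range, PPP1R3B with 0.88 against -0.05 and UGP2 with -0.31 against -0.45.

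When each library's trend with GC content and length was removed by offsets, which also take out any biological change that follows GC, 7 of 9 glycogen genes were called higher in the edgeR F test with BH adjustment, against 28.3% of all tested genes. The 4 genes called before stayed among them, GYS1 at a log2 fold change of 0.63, PGM1 at 0.70, PYGB at 0.30 and PPP1R3B at 1.06. GBE1 was at 0.38 (adjusted p = 0.000395), PPP1R3C at 0.55 (0.0112) and GYG1 at 0.22 (0.0307), all by that F test of edgeR. UGP2 at 0.14 (adjusted p = 0.140) and PYGL at 0.13 (0.0991) were not called by that F test of edgeR. The results of GBE1, PPP1R3C, GYG1 and UGP2 thus differ with the treatment of GC content, and those of GYS1, PGM1, PYGB and PPP1R3B do so only in size.

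Levels of different genes were compared as RPKM, the TMM-scaled CPM divided by the kilobases of all annotated exons of a gene. The order of genes thus depends on the annotated exon length, which the SD does not cover. In VC cells PYGB was highest at 71.6 ± 9.75 RPKM (mean ± SD, n = 3), followed by PGM1 at 46.6 ± 2.58 RPKM. PYGL at 19.8 ± 0.643 RPKM and GYS1 at 18.2 ± 1.79 RPKM did not differ beyond their spread. The same held for UGP2, GBE1 and GYG1, at 8.11 ± 1.78, 7.91 ± 0.612 and 7.67 ± 0.590 RPKM. PPP1R3B at 2.89 ± 0.229 RPKM and PPP1R3C at 1.37 ± 0.110 RPKM were lowest.

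In VHL-KO cells the order changed at GYS1. GBE1 hardly moved, and its place above GYG1 and UGP2 came with their lower levels under TMM scaling. GYS1 stood at 33.9 ± 1.05 RPKM and above PYGL at 20.5 ± 0.838 RPKM, and GBE1 at 8.16 ± 0.747 RPKM lay above GYG1 and UGP2 by more than their spread. That place of GBE1 depends on the division by exon length (4651 bases for GBE1, 7551 for GYG1 and 6791 for UGP2). Before that division the order was the reverse, with GBE1 at 37.96, UGP2 at 44.43 and GYG1 at 49.55 CPM in VHL-KO cells. Per kilobase, GYG1 and UGP2, at 6.56 ± 0.613 and 6.54 ± 0.609 RPKM, did not differ beyond their spread, and PPP1R3B followed at 5.33 ± 0.372 RPKM. PYGB reached 105 ± 3.10 RPKM and PGM1 71.7 ± 3.04 RPKM. With the trend in GC content and length taken out, the mean GYS1 to PYGL ratio rose 1.42-fold in place of 1.80-fold. With the GC and length offsets the log2 fold changes of GBE1, GYG1 and UGP2 were 0.38, 0.22 and 0.14, in place of 0.04, -0.23 and -0.31. Synthase and the more abundant phosphorylase both rose, and the GYS1 to PYGB ratio per kilobase was 0.261, 0.243 and 0.260 in VC, against 0.322, 0.323 and 0.323 in VHL-KO samples. The groups did not overlap in this ratio, which was not tested.

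Among the targeting subunits, PPP1R3C held 16.9%, 14.9% and 13.8% of the family's reads per kilobase in VC, against 11.2%, 14.1% and 15.5% in VHL-KO samples. The groups overlapped, and the difference of -1.60 percentage points had p = 0.5 in a two-sided exact permutation test (adjusted p = 0.5 over the 2 shares). Single libraries moved this difference, to -0.418 points without VHL-KO replicate 1, to -2.54 points on dropping VHL-KO replicate 3, and to -0.738 points when the first VC sample was left out. With the trend in GC content and length taken out it was 0.226 points. The share of PPP1R3B per kilobase went from 31.9% ± 1.24 to 40.9% ± 2.36 (SD, n = 3 each) and that of PPP1R3D from 21.7% ± 1.81 to 8.83% ± 0.934. PPP1R3E went from 7.36% ± 0.420 to 12.2% ± 2.33 of the family, and PPP1R3F stood at 23.6% ± 1.93 and 24.1% ± 2.33, or at 26.6% ± 0.359 and 21.1% ± 2.03 with that trend taken out. PPP1R3A, the muscle subunit, had 0 reads in every sample.

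**Figure D4:**
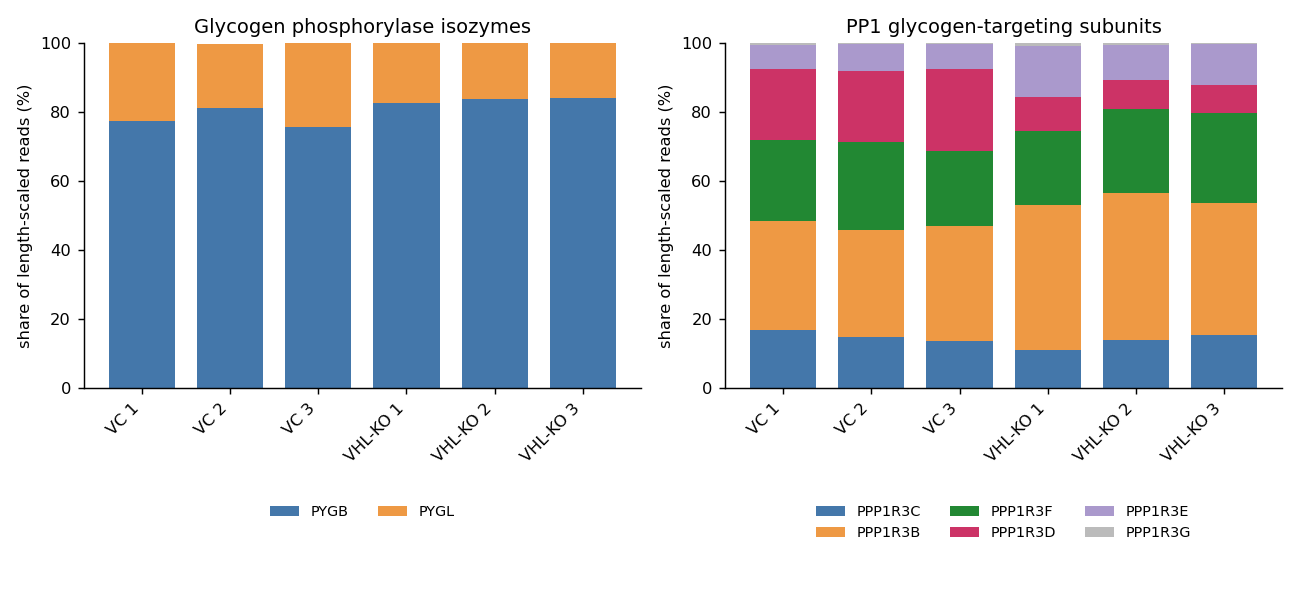
Share of reads per kilobase (vertical axes, percent) in each sample for the glycogen phosphorylase isozymes (left, PYGM too small to see) and the PP1 glycogen-targeting subunits (right). PYGL takes 15.8% to 17.2% of phosphorylase in VHL-KO and 18.8% to 24.1% in VC samples, and PPP1R3D shrinks from 21.7% to 8.83% of the targeting subunits.

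Other genes of glycogen metabolism were described from a list of 33, of which 29 were tested. Of these, 11 were called higher, 7 lower and 11 were not called, a called share of 62.1% against 59.7% of all tested genes, with 37.9% higher against 28.5% and 24.1% lower against 31.2%. The median log2 fold change was 0.19 against -0.01 for all tested genes. As the list was chosen with earlier results of these data known, these values and those with offsets are descriptions. With the GC and length offsets 12 were called higher, which is 41.4% against 28.3% of all tested genes. The number called lower was 7 of 29, against 5493 of 17401 for all tested genes. Which genes were called differed, as given below. The liver synthase GYS2, PYGM, PPP1R3A and the liver glucose-6-phosphatase G6PC1 did not reach 10 reads in any sample.

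GAA, the acid glucosidase that degrades glycogen in lysosomes, had the largest rise on the list. It was at 91.1, 105 and 80.3 CPM in VC and at 339.8, 355 and 375 CPM in VHL-KO samples. The groups stood far apart, with a fold of 3.87 and a change of 1.95 on the log2 scale (standard error 0.10, adjusted p = 4.46e-14, edgeR F test with BH adjustment). GAA has 64.8% GC, and its log2 fold change was 1.57 with the GC and length offsets. STBD1, which tethers glycogen to membranes on that route, was at -0.53 and not called except with library size alone (-0.73), and 88.5% of its exonic bases are shared with the readthrough gene FAM47E-STBD1 on the same strand, so its count is uncertain. The second glycogenin, GYG2, was at -0.19 and not called, but was called lower with library size alone (-0.38) and with the offsets (-0.27).

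Phosphorylase kinase, which switches phosphorylase on, had 2 of 5 tested genes called higher and 2 lower, beside 28.5% higher and 31.2% lower over all tested genes. The regulatory α subunits fell, PHKA2 by 0.71 and PHKA1 by 0.44 on the log2 scale, the β subunit PHKB was at 0.02 and not called, and the catalytic γ subunits rose, PHKG2 by 0.53 and PHKG1 by 1.01. PHKG1 rested on 17 to 37 reads per sample and was called in 8 of 15 alternatives, not with library size alone, the GC and length offsets (alone or with a replicate block), nor when VC replicate 1 or 3, or sample 1 or 2 of VHL-KO, was left out (log2 fold change from 0.69 to 1.26 over all 15). PHKA1 was not called without VHL-KO replicate 2 (-0.33, adjusted p = 0.0681, edgeR F test with BH adjustment). With the GC and length offsets PHKB was called higher, at 0.40, and PHKA1 was at -0.28 and called. Of the exonic bases of PHKG2, 28.8% overlap other genes, 7.8% on the same strand, so its count is uncertain.

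Of the other targeting subunits, 2 of 4 tested were called higher and 1 lower, where 59.7% of all tested genes were called either way. PPP1R3E rose from 3.70 ± 0.209 to 8.89 ± 1.99 CPM (SD, n = 3 each; log2 fold change 1.27) and PPP1R3F by a log2 fold change of 0.55, while PPP1R3D fell by 0.76. PPP1R3G, with 3 to 11 reads per sample, was not called. PPP1R3F, with 61.9% GC, was at 0.20 and not called with the GC and length offsets, and 22.3% of its exonic bases overlap genes on the opposite strand. Of the 3 catalytic subunits of PP1, PPP1CC fell from 87.3 ± 24.5 to 41.0 ± 3.88 CPM (log2 fold change -1.09, adjusted p = 3.05e-07, edgeR F test with BH adjustment). With the GC and length offsets PPP1CC was at -0.82 and still called. PPP1CA at 0.20 and PPP1CB at -0.14 were not called with TMM scaling. The synthase kinases GSK3A (0.22) and GSK3B (-0.06) and the genes of the Lafora disease proteins, EPM2A (-0.08) and NHLRC1 (0.19), were not called either.

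Several of these uncalled genes changed with the setting. With the GC and length offsets PPP1CB (0.33) and GSK3B (0.25) turned sign and were called higher, GSK3A was called higher at 0.23, and PPP1CA turned to -0.07, not called. Without VC replicate 2, PPP1CA (0.29) and GSK3A (0.32) were called higher and PPP1CB (-0.29) lower, and without VC replicate 3 PPP1CB was at 0.10, not called. PPP1CA and GSK3A were called in 5 of 15 alternatives each. EPM2A and NHLRC1 were called in none, and their signs differed between alternatives.

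Around glucose-6-phosphate, the mutases and hexokinases had 2 called higher and 2 lower among 5 tested, a called share of 80.0% beside 59.7% of all tested genes. PGM2, a phosphopentomutase related to PGM1, was at 31.7, 30.7 and 36.0 CPM in VC and at 9.77, 11.0 and 9.62 CPM in VHL-KO samples. Its groups stood far apart, in the direction opposite to PGM1, at -1.70 on the log2 scale (standard error 0.13, adjusted p = 4.20e-11, edgeR F test with BH adjustment). PGM2L1, which makes the cofactor of these mutases, rose by a log2 fold change of 0.93, and HK1 by 0.34, the latter not called with library size alone (0.15). HKDC1 fell by 0.79 on the log2 scale, and HK2 was at 0.09 and not called. With the GC and length offsets PGM2 was at -1.31, PGM2L1 at 1.38, HK1 at 0.31 and HKDC1 at -0.85, all still called.

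Both tested genes for releasing free glucose from glucose-6-phosphate were called higher, as were 28.5% of all tested genes. G6PC3, the widely expressed phosphatase, rose by a log2 fold change of 0.64 and SLC37A4, the transporter into the endoplasmic reticulum, by 0.61. Of the exonic bases of G6PC3, 23.9% overlap HDAC5 on the opposite strand. Of 3 other genes of UDP-glucose and galactose metabolism, 2 were called higher, GALT by a log2 fold change of 0.89 and GALK1 by 0.68, and UGDH was called lower at -0.37, against the same 28.5% higher and 31.2% lower of all tested genes. With the GC and length offsets GALK1 was at 0.14 and UGDH, whose sign turned, at 0.03, neither of them called. Of the exonic bases of GALT, 39.7% overlap another gene on the same strand, so its count is uncertain.

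**Figure D5:**
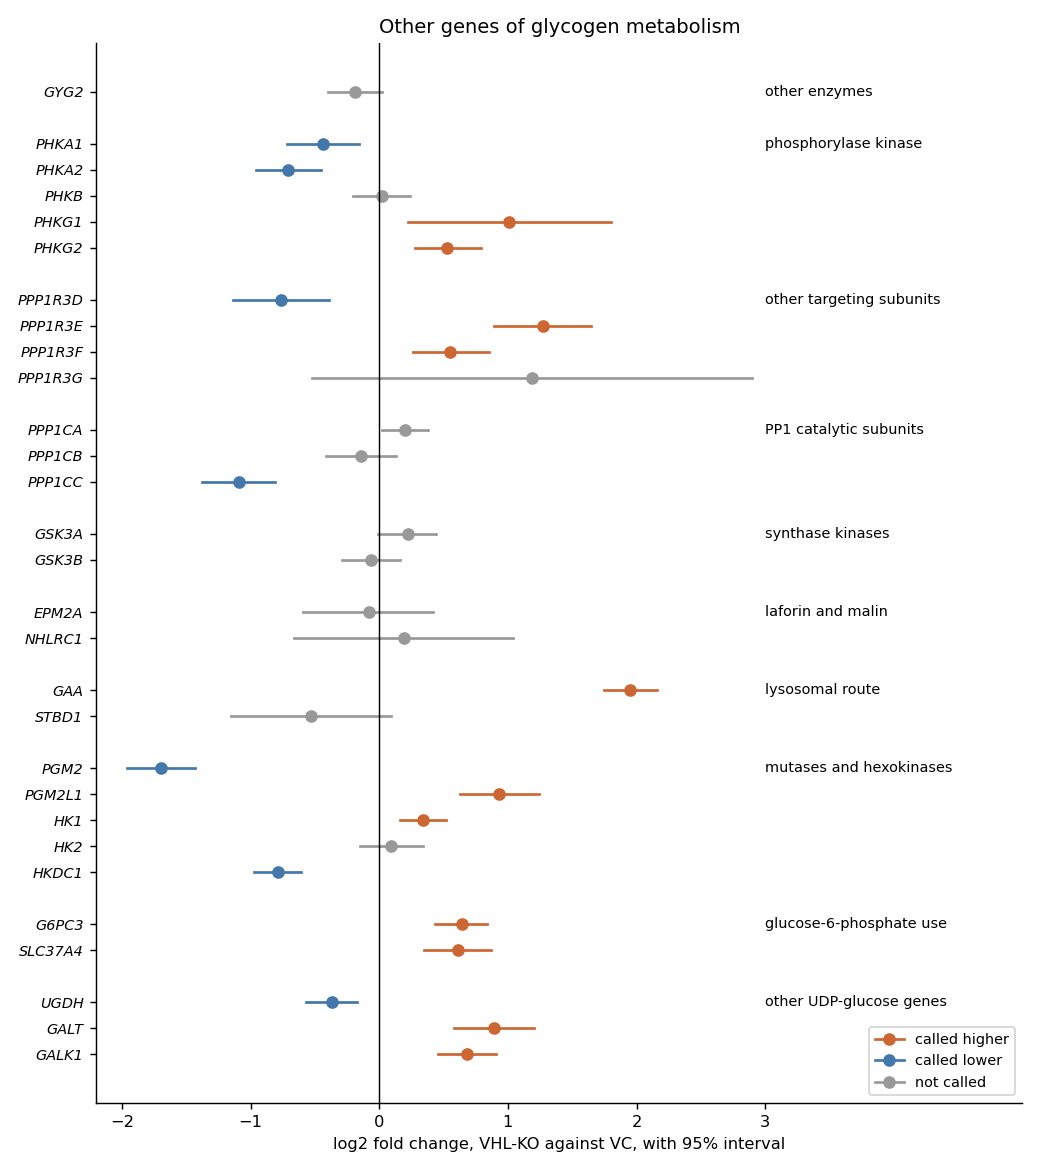
Log2 fold change with 95% interval, VHL-KO against VC (horizontal axis), of the 29 tested genes of the wider list in groups by role, colored orange where called higher, blue where called lower and grey where not called. GAA at 1.95 and PGM2 at -1.70 mark the ends, and phosphorylase kinase and the targeting subunits hold genes on both sides of 0.

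Promoter windows were read from RefSeq (GRCh38.p14), with 250 bases before and 50 after each annotated start. Of the 9 genes, 8 (all but PPP1R3B) had an entry, with 11 windows in all. Each window was searched on both strands for ACGTG and GCGTG, the 2 forms of the core to which HIF binds; matches on opposite strands can overlap, as in CACGTG. Of 35116 promoter windows of this length, 21.4% hold ACGTG and 36.5% hold GCGTG. Windows are shown for 3 genes that rose together (GYS1, PGM1 and PYGB) and for 2 not called with TMM scaling (PYGL and PPP1R3C). PPP1R3C was called higher with upper quartile scaling and with the GC and length offsets. Matches on either strand are in capitals.

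GYS1, minus strand of chr19:48993260-48993559: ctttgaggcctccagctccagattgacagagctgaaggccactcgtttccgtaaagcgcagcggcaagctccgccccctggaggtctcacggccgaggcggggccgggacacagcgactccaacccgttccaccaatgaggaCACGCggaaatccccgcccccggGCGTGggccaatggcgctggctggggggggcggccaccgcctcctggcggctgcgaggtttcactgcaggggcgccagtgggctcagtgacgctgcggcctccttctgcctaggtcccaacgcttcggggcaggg
PGM1, plus strand of chr1:63593161-63593460: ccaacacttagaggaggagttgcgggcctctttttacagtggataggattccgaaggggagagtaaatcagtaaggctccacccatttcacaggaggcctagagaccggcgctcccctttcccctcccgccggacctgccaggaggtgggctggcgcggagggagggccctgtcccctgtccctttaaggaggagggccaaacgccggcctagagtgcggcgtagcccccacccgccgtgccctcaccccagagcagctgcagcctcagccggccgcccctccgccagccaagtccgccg
PYGB, plus strand of chr20:25247835-25248134: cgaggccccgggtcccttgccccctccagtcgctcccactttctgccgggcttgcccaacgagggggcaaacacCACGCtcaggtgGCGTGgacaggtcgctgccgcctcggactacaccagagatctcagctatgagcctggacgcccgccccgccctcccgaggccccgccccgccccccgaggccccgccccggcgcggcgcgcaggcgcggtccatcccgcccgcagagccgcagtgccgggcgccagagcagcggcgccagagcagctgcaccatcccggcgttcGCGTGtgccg
PYGL, minus strand of chr14:50944434-50944733: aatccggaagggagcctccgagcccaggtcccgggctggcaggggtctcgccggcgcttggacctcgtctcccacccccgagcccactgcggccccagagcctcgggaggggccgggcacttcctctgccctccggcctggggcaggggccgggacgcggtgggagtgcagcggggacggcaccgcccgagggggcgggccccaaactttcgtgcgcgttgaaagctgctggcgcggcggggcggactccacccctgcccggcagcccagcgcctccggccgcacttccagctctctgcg
PPP1R3C, minus strand of chr10:91633022-91633321: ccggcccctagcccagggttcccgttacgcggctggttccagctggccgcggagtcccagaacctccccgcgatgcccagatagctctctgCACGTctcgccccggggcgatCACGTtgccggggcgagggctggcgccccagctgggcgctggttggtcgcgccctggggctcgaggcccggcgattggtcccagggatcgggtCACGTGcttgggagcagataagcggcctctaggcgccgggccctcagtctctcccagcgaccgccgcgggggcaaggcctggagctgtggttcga

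The window of GYS1 holds 2 matches to GCGTG and none to ACGTG, and that of PYGB holds 3 matches to GCGTG and none to ACGTG. The PGM1 window shown and that of PYGL hold neither, and a downstream window of PGM1 (chr1:63593559-63593858) holds 1 ACGTG and 2 GCGTG. The window of PPP1R3C holds 4 matches to ACGTG, a pair of which are the overlapping strands of CACGTG. GYG1, GBE1 and UGP2, none of them called higher with TMM scaling, also hold both motifs, UGP2 in 1 of its 2 windows. In all, 5 of 11 windows hold ACGTG and 7 of 11 hold GCGTG, in 5 and 6 of the 8 genes. A match is a description of letters in the reference and not of binding, and the members' windows are richer in GC than most, at 66.0% to 77.3% apart from the third PGM1 window at 51.0%, against a median of 58.7% for all windows.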

How the data were processed

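Total RNA of 6 Caki-1 samples, 3 VC and 3 VHL-KO by their labels, was isolated in Trizol, and libraries were run on an Illumina NovaSeq. Per the paper's methods and the submitters' processing notes, the authors trimmed reads with Trim Galore and cutadapt, kept reads of at least 20 nt, aligned them with STAR to GRCh38.p13, selected uniquely mapped reads with SAMtools and counted reads per gene with HTSeq. The values the authors deposited are raw counts per gene and sample, without normalization. Tool versions, annotation release and strandedness are not given in the sources used here, so overlapping genes on opposite strands may share reads, and reads shared with near-identical copies were dropped.

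Here, genes reaching 10 reads in 1 sample or more were compared with edgeR 4.0.16 in R 4.3.3 (TMM factors, quasi-likelihood F test, two-sided, Benjamini-Hochberg adjustment over all tested genes, threshold 0.05). Standard errors are the absolute log2 fold change over the square root of F. Intervals are at 95%. Exon lengths and GC contents came from GENCODE on GRCh38. Replicates differed by more than sampling noise (chi-square per degree of freedom 6.03 to 31.9), so none was a copy. Alternatives were DESeq2 1.42.0, other scalings and filters, each sample left out, a replicate block, and offsets for GC content and length (natural splines, 5 degrees of freedom), alone and with the block. For shares they were raw counts without division by exon length, each sample left out and, chosen after seeing the data, counts with each library's trend with GC content and length taken out, which also served for ratios. The text names all members, the edited gene, 4 HIF targets and the genes of the wider list, of which up to 4 called genes per group follow a rule and the uncalled ones were named after their values were seen. Some genes of the wider and marker lists are not reported here and enter no list count. The members and lists were chosen with earlier results of these data known.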

Additional observations from a re-analysis of the deposited data

How the results depend on the processing

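Over the alternatives, 562 values of the members, VHL, the HIF targets and the tested genes of the wider list kept their direction and their side of the threshold, 24 lost their call and 26 gained one with the same sign, and 30 changed sign, counted apart whether or not their call changed too. GYS1, PGM1, PYGB and PPP1R3B were called higher in every alternative run, and the number of glycogen genes called higher was 7 with the GC and length offsets and 7 with the replicate block and these offsets together. The number called lower was 0 with DESeq2, with relative log expression factors, with upper quartile factors, with at least 10 reads in every sample, with the offsets and with the block and offsets, 2 with library size alone and with no filter beyond 1 count, and 0 to 2 with single samples left out; where it was 0, UGP2 had lost its call, and where it was 2, the second gene was GYG1. GYG1 was at 0.22 with the offsets and 0.22 with block and offsets, UGP2 at 0.14 and 0.14, UGDH at 0.03 and 0.03, PPP1CA at -0.07 and -0.07, PPP1CB at 0.33 and 0.34, GSK3B at 0.25 and 0.25, EPM2A at 0.34 and 0.36, and NHLRC1 at 0.00 and -0.04. With upper quartile factors GSK3B was at 0.05 and EPM2A at 0.03. With library size alone, which shifts the median of all genes to -0.20, GBE1 was at -0.15, PYGL at -0.14, PHKB at -0.18, NHLRC1 at -0.01 and HK2 at -0.10. PHKB was at -0.02 with no filter beyond 1 count. With single samples left out GBE1 ranged from -0.02 to 0.12, PHKB from -0.04 to 0.12, PPP1CB from -0.29 to 0.10, EPM2A from -0.21 to 0.01 and NHLRC1 from -0.21 to 0.38. The PPP1R3C share differed by 0.226 points between the groups once the GC and length trend was taken out of the counts, an alternative chosen after seeing the data. The cause of these changes was not tested. The replicate number as a block gave 4 glycogen genes higher, 1 lower and 10284 genes called, and the deviations of samples with the same number correlated at 0.063, 0 and 0.028, so the numbers were not taken to pair the samples.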
